A study of Homo sapiens with 183 samples.

Results

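RUVBL1 and RUVBL2 are AAA+ ATPases that assemble into hexameric rings. They work in the R2TP chaperone, which helps build box C/D small nucleolar RNPs, RNA polymerase II and the PI3K-like kinases (PIKKs), and they are structural subunits of the INO80, SRCAP and TIP60 chromatin complexes. CB-6644 is a small molecule that blocks the ATPase activity of the RUVBL1/2 complex, and single changes in either protein, RUVBL1 A62T and RUVBL2 dF109, are known to make cells resistant to it. The data described here are the poly(A) RNA profiles of cells that carried 1 of these resistance variants and were still exposed to CB-6644, and the question was which genes nevertheless differed from vehicle-treated cells. A change seen in both variants and in both cell lines was taken as the residual response.

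The profiles came from AsPC-1 and T3M-4, which are human pancreatic cancer cell lines. Of the 183 libraries of the series, 18 were used: 3 A62T and 3 dF109 libraries treated with CB-6644 for 24 h in each line, and the 3 DMSO libraries of each line. Each line had been given a lentiviral vector holding RUVBL1 A62T cDNA, RUVBL2 dF109 cDNA or no cDNA (empty vector, EV) and selected for stable expression, so the unaltered endogenous genes were still present. Each vector had 1 DMSO library per line, and the 3 together served as the control. The 3 EV libraries per line treated with CB-6644 are given beside the variant values. Nothing in the labels says whether libraries of a group came from separate cultures, so p-values measure only the spread between libraries.

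The 2 altered codons are shown because they define the cells. Both are drawn from the reference genome (hg38, GENCODE transcripts) and not from these cells, each as 27 bases in the coding direction with the altered codon in capitals. In RUVBL1 it is codon 62 of 456 (chr3:128119370-128119372, minus strand, coding exon 2 of 11, within chr3:128064778-128153914), and in RUVBL2 it is codon 109 of 463 (chr19:49007077-49007079, plus strand, exon 5 of 15, within chr19:48993562-49015970).
RUVBL1 codon 62: agcaagaaaatgGCTggaagagctgtc
RUVBL2 codon 109: ggcagtgaaatcTTCtccctggagatg

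The vectors could be read in the RNA. In AsPC-1, RUVBL1 stood at 2665 TPM (transcript abundance scaled to a fixed total per library) in the A62T DMSO library and at 2964, 2766 and 2824 TPM in the treated A62T libraries, and every other AsPC-1 library of the experiment lay between 71.4 and 99.9 TPM. In T3M-4 the A62T DMSO library had 1785 TPM and the treated ones 1971, 2151 and 1973 TPM, against 110 to 148 TPM elsewhere. RUVBL2 showed the same separation for dF109: 1607 TPM in DMSO and 2004, 2178 and 1889 TPM after treatment in AsPC-1, and 1055 TPM in DMSO and 1248, 1256 and 1166 TPM after treatment in T3M-4, with no more than 148 TPM in any other library of either line. Every library therefore matched its vector label, and both genes were left out of the counts that follow. Reads do not separate the altered from the unaltered transcript here. The 5 epithelial markers were all present, and of 6 markers of other cell types, 5 in AsPC-1 and 4 in T3M-4 stayed below 1 TPM in every library. Both exceptions in T3M-4 were higher in treated variant libraries than in DMSO. PTPRC, a leukocyte phosphatase, had 19 to 23.2 TPM in treated variant libraries and 7.62 to 18.3 TPM in DMSO, and COL1A1, a fibrillar collagen of fibroblasts, 11.2 to 14.8 TPM against 8.06 to 10.6 TPM. The 6 markers summed to 32.1 to 38.1 TPM against 16.8 to 30.1 TPM, and their part in the results was not tested. For PTPRC and COL1A1 the A62T DMSO library was the highest control. Treated EV libraries (6.52 to 14.1 TPM and 4.49 to 17.6 TPM) overlapped the DMSO range for both.

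Treated variant cells differed from vehicle-treated cells at many genes, by small amounts. With TPM as deposited, 732 of the 11668 genes tested in both lines (mean of at least 1 TPM) passed a Benjamini-Hochberg adjusted p of 0.05 in limma in the same direction in all 4 comparisons, A62T and dF109 in AsPC-1 and in T3M-4. Of these, 666 were higher and 66 lower than in DMSO. The counts per comparison were uneven. A62T in AsPC-1 differed at 1567 genes (1324 higher and 243 lower, or 10.8% and 1.98% of 12255 tested), and dF109 in AsPC-1 at 4096 (29.3% higher and 4.11% lower). In T3M-4, A62T differed at 6697 genes (45.4% higher and 4.6% lower of 13400 tested) and dF109 at 5036 (34.3% higher and 3.33% lower). EV cells, which carry no resistance cDNA, differed at 7894 genes in AsPC-1 (47.2% higher and 17.2% lower) and at 4599 in T3M-4 (19.1% and 15.2%).

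The changes in variant cells were small. The median size among called genes was 0.34 and 0.36 on the log2(TPM + 1) scale for A62T and dF109 in AsPC-1 and 0.53 and 0.51 in T3M-4, against 0.45 and 0.55 in EV cells. A called change of at least 1 on that scale occurred at 2 and 23 genes in AsPC-1 and at 277 and 140 genes in T3M-4, but at 599 and 524 genes in the EV cells of the 2 lines. Because all these comparisons use the same DMSO libraries, they are set side by side and not tested against each other.

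Whether a gene counted as higher depended on the scale. The median gene was itself 0.10, 0.14, 0.33 and 0.29 above DMSO (A62T and dF109 in AsPC-1, then in T3M-4), so the as-deposited counts lean upward. After each library was rescaled by the median of its ratios to a common reference, the higher and lower genes numbered 651 and 1046 for A62T and 1436 and 2431 for dF109 in AsPC-1, and 1382 and 2502, and 1146 and 2131, in T3M-4. On the rescaled values alone, 141 genes were alike and higher and 469 alike and lower. The sets that passed on both scales held 134 higher and 64 lower genes (1.15% and 0.549% of all genes tested in both lines, against 5.71% and 0.566% as deposited). Which set a count refers to is stated with it. In T3M-4 DMSO, 84 cytosolic ribosomal protein genes took 19.7% of TPM with the A62T vector, 23.1% with dF109 and 28% with EV. Their share was 17.2 to 17.8% in treated A62T and 18.6 to 19.1% in treated dF109 libraries, below every DMSO library. Treated EV libraries had 24.2 to 28.7%, a range that held their own DMSO value. In AsPC-1 the share was 19.7 to 21.2% in variant libraries against 18.7 to 23.3% in DMSO. Genes at 1 TPM or more were also more numerous in treated variant libraries (12104 to 12404 against 11767 to 12009 in AsPC-1, and 13487 to 13575 against 12650 to 13167 in T3M-4). The part these differences play in the calls was not tested, and less RNA per cell and fewer cells of a state cannot be told apart in bulk RNA.

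**Figure D1:**
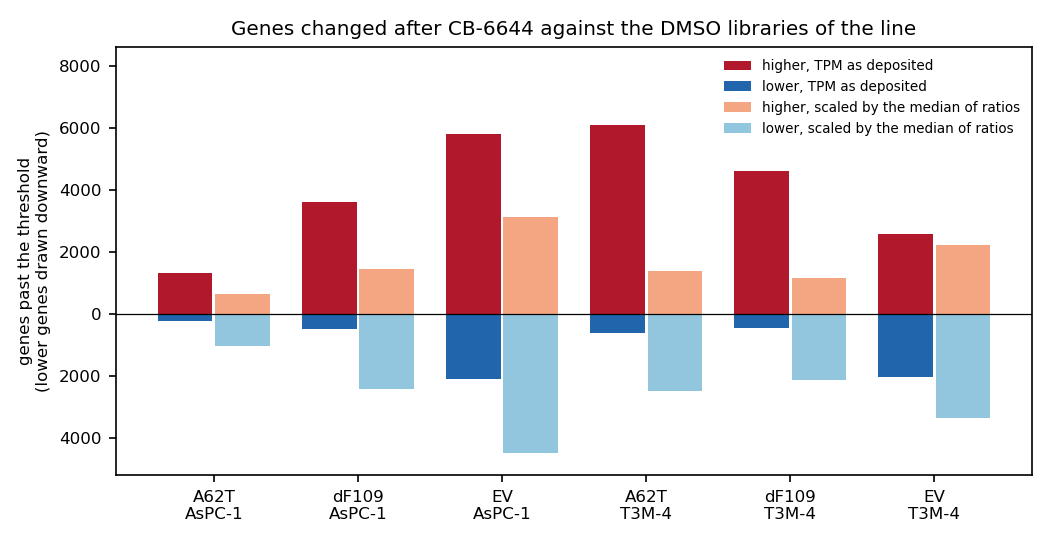
Number of genes past the threshold (limma, Benjamini-Hochberg adjusted p of 0.05) in each comparison of CB-6644 libraries with the 3 DMSO libraries of the line, higher genes drawn upward and lower genes downward. Dark bars use TPM as deposited and light bars the rescaled values; for A62T in AsPC-1 the higher and lower counts go from 1324 and 243 to 651 and 1046.

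The count of alike genes was set mostly by A62T in AsPC-1. Members made up 50.3% of its higher and 27.2% of its lower genes, but only 11 to 18.5% of the higher and 10.7 to 14.8% of the lower genes of the other 3 comparisons. Without replicate 1 of A62T AsPC-1 CB-6644, 69 higher and 9 lower genes were alike, all of them among the 666 and 66, and without the AsPC-1 EV DMSO library the higher genes numbered 1237 and the lower 70, with 599 and 51 of the original genes among them. Leaving out other AsPC-1 libraries gave 237 to 659 higher and 20 to 80 lower genes, and leaving out T3M-4 libraries gave 373 to 843 and 53 to 81. All 3 treated libraries lay beyond all 3 DMSO libraries in each of the 4 comparisons for 639 of the 666 higher and 64 of the 66 lower genes. The same libraries chose these genes, so their separation follows largely from the rule and is no support for them. In single comparisons that separation was frequent in general: among all genes tested, 27.8% and 35.1% (A62T and dF109 in AsPC-1) and 56.3% and 48.2% (in T3M-4) lay wholly above DMSO, and 5.59%, 6.11%, 6.61% and 6.3% wholly below. The share of all genes separated in all 4 at once was not counted. The threshold cut through a continuum. NCOA3, a nuclear receptor coactivator, was just inside the higher set with a mean log2 change of 0.45 over the 4 comparisons, and C14orf28 just outside it with 0.50. SERBP1, an mRNA-binding protein, was just inside the lower set with -0.30, and PTMA, a histone-binding acidic protein, just outside it with -0.29.

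UTP18, a subunit of the small-subunit processome that matures 18S rRNA, had 41.2, 44.2 and 46.3 TPM in the AsPC-1 DMSO libraries (A62T, dF109 and EV vector, the order used throughout), 33.4, 33.4 and 31.4 TPM in treated A62T cells, and 33.4, 31.4 and 33.1 TPM in treated dF109 cells. Its T3M-4 levels were 82.8, 91.9 and 88.6 TPM in DMSO, 52.1, 51.0 and 50.6 TPM in A62T and 50, 51.3 and 50.7 TPM in dF109. Variant levels lay below every DMSO library and were alike in both variants, and EV levels lay lower still, at 12.8 to 15 TPM in AsPC-1 and 18.4 to 20.1 TPM in T3M-4. The log2 changes were -0.41 ± 0.07 and -0.42 ± 0.07 (SE, n = 3 and 3) in AsPC-1 and -0.76 ± 0.07 and -0.78 ± 0.07 in T3M-4, against -1.57 and -2.12 in EV cells. Each SE in this text rests on a spread pooled over all groups of its fit, not on the compared libraries alone. In both lines, then, UTP18 in variant cells lay between its DMSO and EV levels.

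RPP40, a protein subunit of RNase P and RNase MRP, behaved similarly. It had 24.6, 25.6 and 26.0 TPM in AsPC-1 DMSO, 17.1 to 19.2 TPM in treated A62T and 17.4 to 19.8 TPM in treated dF109 cells, with 7.43 to 8.79 TPM in EV cells. In T3M-4 it had 27.9, 30.2 and 27.6 TPM in DMSO, 16.4 to 20.6 TPM in A62T, 17.6 to 18.7 TPM in dF109 and 9.22 to 10.6 TPM in EV cells. NPM1, the abundant histone and ribosome chaperone of the nucleolus, followed a different order in T3M-4. It had 2319, 2470 and 2378 TPM in AsPC-1 DMSO, 1910, 2078 and 1924 TPM in A62T, 1878, 1880 and 2030 TPM in dF109 and 1318 to 1455 TPM in EV cells. In T3M-4 the DMSO libraries had 2124, 2442 and 2900 TPM. Below all of them lay A62T (1529, 1622 and 1610 TPM) and dF109 (1640, 1667 and 1677 TPM), which did not overlap. EV cells (1520, 1772 and 1865 TPM) also lay below DMSO and spanned both variants. FBL, the methyltransferase of box C/D snoRNPs, had 298, 354 and 389 TPM in T3M-4 DMSO, 233 to 239 TPM in A62T and 254 to 268 TPM in dF109, whereas EV cells (319 to 342 TPM) lay within the DMSO range and above both variants. Its log2 changes were -0.18 and -0.19 in AsPC-1 and -0.55 and -0.41 in T3M-4, against -0.50 and -0.07 in EV cells. DDX39A, a DEAD-box helicase of mRNA export, was lower by -0.49 and -0.63 in AsPC-1 and -0.57 and -0.61 in T3M-4, where its DMSO libraries read 67.0 to 73.3 TPM and its variant libraries 42.7 to 49.4 TPM. In AsPC-1 its EV DMSO library, at 121 TPM, stood above the other DMSO libraries (80.7 and 79.5 TPM).

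**Figure D2:**
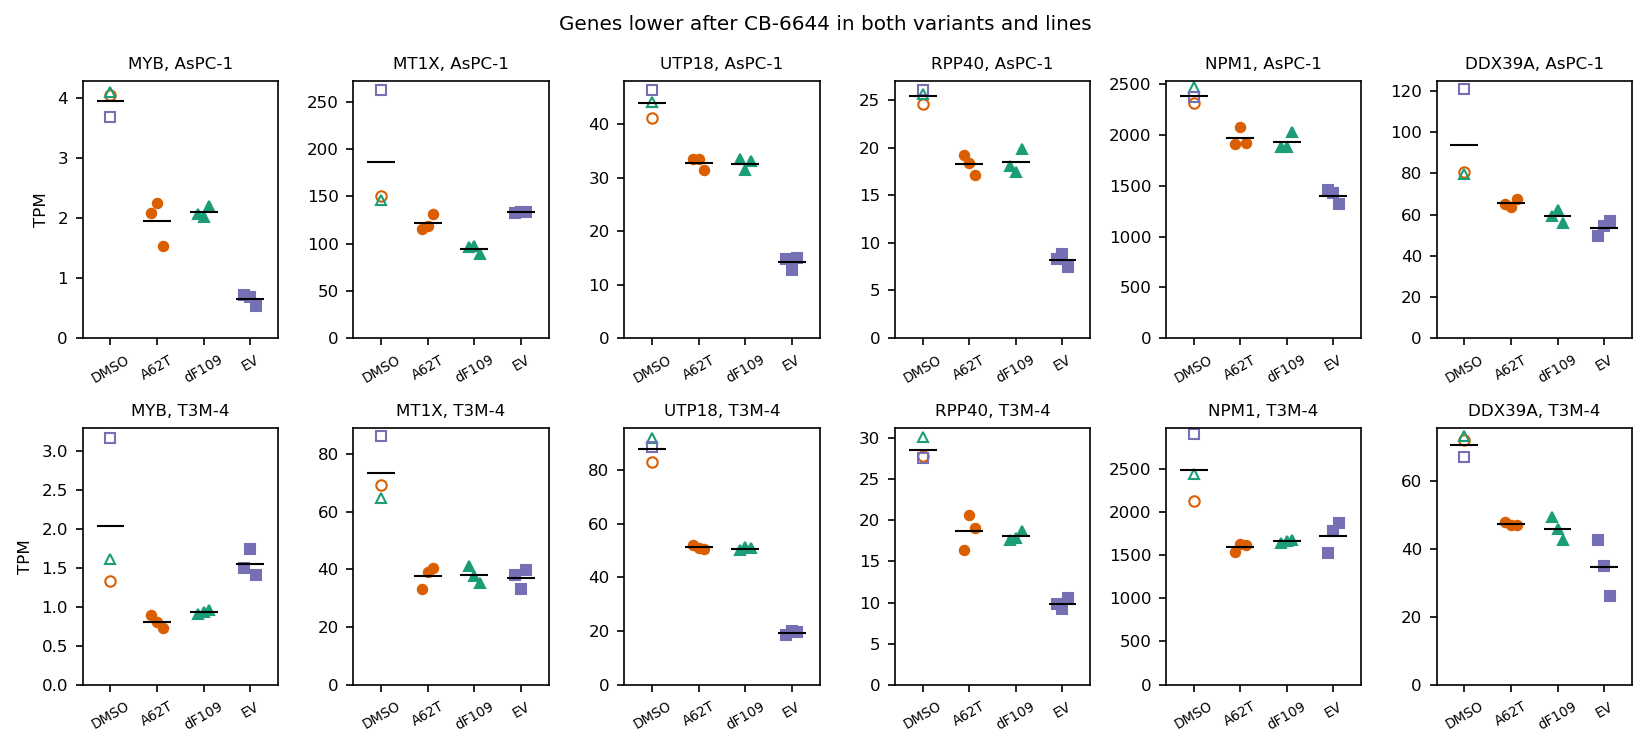
TPM of 6 genes lower in both variants and lines, by library, with AsPC-1 above and T3M-4 below. Open symbols are the DMSO libraries and filled ones the CB-6644 libraries (circles A62T, triangles dF109, squares EV), and the bar is the group mean; for UTP18 every variant library lies between the DMSO and the EV CB-6644 libraries, whereas for NPM1 in T3M-4 the variant and EV libraries overlap.

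GCSH, the lipoyl carrier of the glycine cleavage system, fell from 61.1, 66.7 and 68.9 TPM to 50.5 to 52.7 TPM in A62T and 50.6 to 51.8 TPM in dF109 cells in AsPC-1. In T3M-4 it fell from 40.0, 46.4 and 56.2 TPM to 25.2 to 26.0 TPM and 25.5 to 31.5 TPM, levels below those of EV cells (33.1 to 33.7 TPM). ADSL, adenylosuccinate lyase of purine synthesis, had at least 115 TPM in AsPC-1 DMSO, 92.2 to 105 TPM in A62T and 87.7 to 92.6 TPM in dF109, with 55 to 61.6 TPM in EV cells, and its log2 changes were -0.30 ± 0.07 and -0.44 ± 0.07, and in T3M-4 -0.59 ± 0.07 and -0.62 ± 0.07. SLC25A5, the ADP/ATP translocase of the inner mitochondrial membrane, had log2 changes of -0.32 ± 0.05 and -0.37 ± 0.05 in AsPC-1 and of -0.66 ± 0.10 and -0.70 ± 0.10 in T3M-4. DCTPP1, which clears modified deoxycytidine triphosphates, changed by -0.33 in each variant in AsPC-1 and by -0.82 and -0.81 in T3M-4. The variant and DMSO libraries did not overlap for any of these 4 genes.

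CCNB1, cyclin B1, had 246, 252 and 257 TPM in AsPC-1 DMSO, 218, 234 and 219 TPM in A62T and 203, 195 and 205 TPM in dF109, with 144 to 148 TPM in EV cells. In T3M-4 its DMSO libraries had 254, 318 and 316 TPM, and A62T (199 to 204 TPM), dF109 (224 to 232 TPM) and EV cells (221 to 238 TPM) lay below them. AURKA, Aurora kinase A, changed by -0.19 and -0.31 in AsPC-1 and by -0.42 and -0.36 in T3M-4.

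The largest log2 falls in the lower set belonged to MT1X and MYB. MYB, a proto-oncogene transcription factor, had 4.06, 4.10 and 3.68 TPM in AsPC-1 DMSO, 2.09, 2.26 and 1.53 TPM in A62T, 2.07, 2.02 and 2.21 TPM in dF109 and 0.539 to 0.719 TPM in EV cells, so the 3 states were fully separated. In T3M-4 it was scarce, at 1.33, 1.61 and 3.17 TPM in DMSO, 0.725 to 0.894 TPM in A62T and 0.901 to 0.959 TPM in dF109, and the EV DMSO library accounted for much of the distance. Treated EV cells of T3M-4, at 1.41 to 1.74 TPM, lay within the DMSO range and above both variants. MT1X, a metal-binding metallothionein whose relatives have near-identical sequences, had 151, 146 and 263 TPM in AsPC-1 DMSO, at most 131 TPM in A62T and 89.0 to 97.6 TPM in dF109. EV cells, at 133 to 134 TPM, lay above both variants. In T3M-4 it went from 64.7 to 86.4 TPM in DMSO to 33.2 to 40.5 TPM in A62T and 35.3 to 41.2 TPM in dF109, close to the 33.1 to 39.7 TPM of EV cells.

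As a group, the 66 lower genes had median log2 changes of -0.27 and -0.30 in AsPC-1 and of -0.45 and -0.44 in T3M-4, while the median of all genes tested was 0.10, 0.14, 0.33 and 0.29. In EV cells their medians were -0.66 and -0.61. Set directly against EV cells under CB-6644, 51 of the 66 were higher and 2 lower in each variant in AsPC-1, where 18.8% (A62T) and 21% (dF109) of all genes were higher and 32.3% and 26.3% lower. In T3M-4, 28 were higher and 9 lower in A62T (41.4% and 9.21% of all genes) and 26 higher and 4 lower in dF109 (29.8% and 4.87%), and the higher count in A62T was near the share of all genes. On rescaled values the T3M-4 direction turned: 9 were higher and 16 lower in A62T (22.7% and 20.6% of all genes) and 7 and 6 in dF109 (14.2% and 11.8%), with medians of -0.12 and -0.083, while AsPC-1 kept 56 and 51 higher. These are descriptions, because the variant libraries also chose the genes.

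Genes higher in both variants and lines were of mixed function, and several lay between DMSO and EV cells. HAP1, the huntingtin-associated trafficking adaptor, had 3.92, 4.95 and 4.84 TPM in AsPC-1 DMSO, 8.28, 7.12 and 7.12 TPM in A62T, 12.5, 13.8 and 10.6 TPM in dF109 and 21.7, 22.7 and 28.9 TPM in EV cells. In T3M-4 it had 10.3, 7.54 and 7.11 TPM in DMSO, 21, 22.3 and 22.7 TPM in A62T, 26.9, 28.4 and 27 TPM in dF109 and 24.7 to 47.4 TPM in EV cells. A62T lay below dF109 in both lines without overlap, and the log2 changes were 0.61 ± 0.12 and 1.26 ± 0.12 in AsPC-1 and 1.32 ± 0.20 and 1.63 ± 0.20 in T3M-4. NPTXR, a neuronal pentraxin receptor, had the same order, from 1.13 to 1.70 TPM in AsPC-1 DMSO to 2.51 to 2.81 TPM in A62T, 3.27 to 4.76 TPM in dF109 and 8.95 to 13.5 TPM in EV cells, and from 3.11 to 6.15 TPM to 12 to 15, 17 to 18.6 and 14.1 to 34.4 TPM in T3M-4. The test of the difference between the variants' own-vector responses passed the threshold for neither gene.

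Other members reached variant levels near those of EV cells in T3M-4. PLXNA3, a semaphorin receptor, had 11.8, 8.52 and 12.2 TPM in AsPC-1 DMSO, 18.5 to 23.7 TPM in A62T, 16 to 25.5 TPM in dF109 and 31.7 to 45.9 TPM in EV cells. In T3M-4 it had 13.7, 7.68 and 6.64 TPM in DMSO, and A62T (22.6 to 24.4 TPM), dF109 (22.1 to 24.0 TPM) and EV cells (12.5 to 37.9 TPM) overlapped. NABP1, a single-stranded DNA-binding protein, had 38.1, 31.1 and 32.8 TPM in AsPC-1 DMSO, 57.1 to 64.6 TPM in A62T, 64.6 to 73.2 TPM in dF109 and 81.4 to 118 TPM in EV cells. In T3M-4 its variant libraries (100 to 103 TPM in A62T and 91.0 to 92.8 TPM in dF109) were above EV cells (62.2 to 88.2 TPM). The secreted nuclease gene DNASE1 changed by 0.68 and 1.09 in AsPC-1 and 1.19 and 1.24 in T3M-4, and APOLD1, an endothelial early-response gene, by 0.67 and 0.91, and 0.98 and 1.28.

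**Figure D3:**
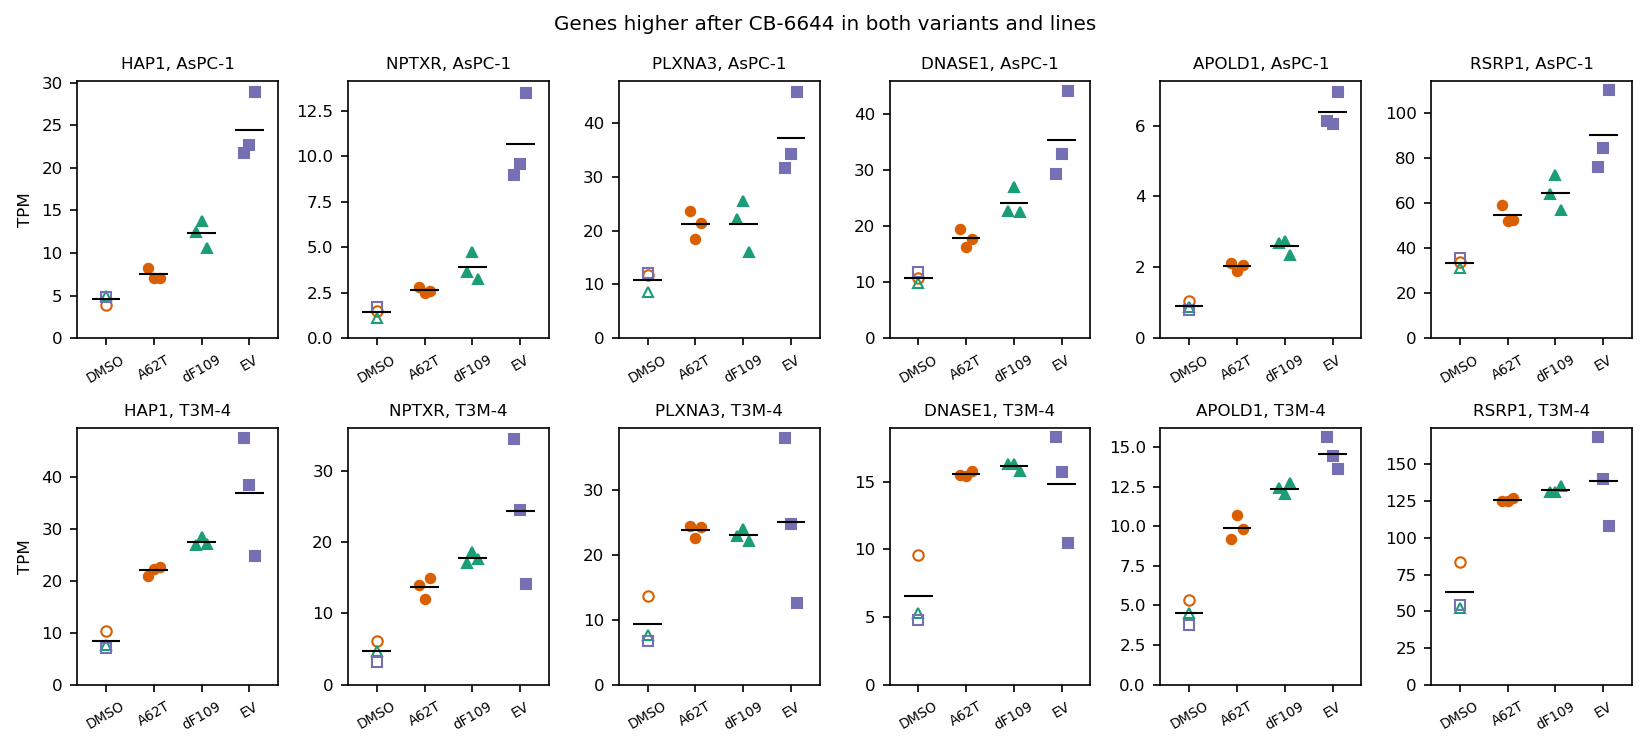
TPM of 6 genes higher in both variants and lines, by library, with the same symbols (open for DMSO, filled for CB-6644, circles A62T, triangles dF109, squares EV, bar for the group mean). In AsPC-1 the variant libraries of HAP1, at 7.12 to 13.8 TPM, fall between DMSO and EV cells, and in T3M-4 the A62T DMSO library of PLXNA3, at 13.7 TPM, is the highest of the 3 DMSO libraries.

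The T3M-4 A62T DMSO library was often the highest of the 3 controls for these genes. SMG1, the PIKK that phosphorylates UPF1 in nonsense-mediated decay, had 44.0 TPM in it, against 20.7 and 18.4 TPM in the dF109 and EV DMSO libraries, and 57.6 to 63.2 TPM in treated A62T and 48.4 to 53.3 TPM in treated dF109 cells. Its A62T change was 1.2 ± 0.25 against the 3 DMSO libraries and 0.44 against its own-vector library, whereas the dF109 change was 0.96 and 1.26. In AsPC-1 SMG1 had 73.4, 47 and 67.0 TPM in DMSO, 83.0 to 97.4 TPM in A62T and 83.0 to 95 TPM in dF109, and EV cells (72.4 to 91.3 TPM) overlapped the variants. SLC7A11, the cystine transporter, likewise had 93.8, 56.0 and 50 TPM in T3M-4 DMSO, 149 to 170 TPM in A62T, 119 to 137 TPM in dF109 and only 79.1 to 88.9 TPM in EV cells, so the treated variant libraries were the highest. In AsPC-1 its variant libraries (87.9 to 98.5 TPM) lay above DMSO (51.2 to 73.6 TPM) and beside EV cells (94.1 TPM and above). PDRG1, a prefoldin-like subunit of the R2TP-associated PAQosome, changed by 0.51 and 0.42 in AsPC-1 and by 0.54 and 0.39 in T3M-4. XPC, a DNA damage recognition factor and p53 target, changed by 0.34 and 0.44, and 0.59 and 0.61. PDRG1 and XPC were alike only as deposited and not on rescaled values.

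Members differed from other genes in level and length, which the rule did not use. The 66 lower genes had a median of 134 TPM in the DMSO libraries of the 4 other cell lines of the series and a median mature transcript of 1525 bases, against 26.5 TPM and 3255 bases over all genes tested in both lines. The 666 higher genes had medians of 18.1 TPM and 3862 bases, and the 134 that passed on both scales 10.0 TPM and 3999 bases. Lengths were found for 98.5% of the lower and 92.5% of the higher genes. These are descriptions, and abundance and length can themselves affect which genes pass a test.

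Against its own-vector DMSO library, each variant gave a different picture. With 1 control library the spread is pooled over the treated groups, and the control is assumed to vary like them. A62T then differed at 5 genes in AsPC-1 (4 higher and 1 lower, with 2015 genes at an unadjusted p under 0.05) and at 163 in T3M-4 (109 higher and 54 lower, and 2871 unadjusted), whereas dF109 differed at 5371 and 5270 genes. The median gene moved by 0.10 and 0.15 in A62T and by 0.23 and 0.32 in dF109. The difference between the variants' own-vector responses was tested directly. In limma with Benjamini-Hochberg adjustment, 1 gene passed in AsPC-1 and 0 in T3M-4 (1206 and 1655 at an unadjusted p under 0.05), so the contrast between 5 and 5371 calls is not itself shown gene by gene. With both variants averaged, each against its own vector, 5740 genes differed in AsPC-1 (43% higher and 3.85% lower) and 5831 in T3M-4 (38.4% and 5.11%), and the 66 lower genes had medians of -0.25 and -0.41. Called variant by variant against own-vector DMSO, however, only 2 higher and 0 lower genes were alike in both variants and lines, and 0 and 0 on rescaled values. UTP18 changed by -0.38 ± 0.06 and -0.76 ± 0.05, and HAP1 by 0.97 ± 0.12 and 1.38 ± 0.19, in that comparison.

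Some of the largest changes in single comparisons rested on 1 DMSO library. In T3M-4 the EV DMSO library stood apart from the other controls. KRT4, a mucosal keratin, had 59.9 and 79.1 TPM in the A62T and dF109 DMSO libraries and 295 TPM in the EV one, and 40.1 to 46.0 TPM in treated A62T and 46.3 to 49.9 TPM in treated dF109 cells. Its changes of -1.37 and -1.19 were the largest falls in each T3M-4 variant, and EV cells under CB-6644 (171 to 189 TPM) were above the A62T and dF109 DMSO libraries. MMP13, a collagenase, followed it with 22, 27.1 and 103 TPM in DMSO and 14.6 to 16.9 TPM in A62T. ATG9B, an autophagy scramblase, had the largest rise in T3M-4 A62T, from 7.01, 2.14 and 0.545 TPM in DMSO to 9.94 to 10.8 TPM, and its own-vector DMSO library held most of that level. CD22 and MUC20 had the same shape, with 34.0, 14.7 and 3.4 TPM and 155, 69.2 and 17.5 TPM in DMSO.

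Other top genes stayed past the threshold in a refit without the EV DMSO library of their line, except POLR2A in T3M-4. RFPL4A, whose family has near-identical copies, led the rises of T3M-4 dF109, from 0.309 to 1.33 TPM in DMSO to 5.06 to 5.62 TPM, and had 4.08 to 4.46 TPM in A62T and 8.25 to 9.87 TPM in EV cells. MAP2K6, a p38 kinase kinase, fell from 2.63, 3.14 and 5.66 TPM in T3M-4 DMSO to 0.922 to 1.23 TPM in A62T and 0.929 to 1.45 TPM in dF109, below EV cells (2.07 to 2.23 TPM). The EV DMSO library was its highest control, and without it the changes went from -1.13 and -1.09 to -0.87 and -0.83. In AsPC-1, RXFP4, a relaxin-family peptide receptor, rose from 7.26, 6.80 and 4.51 TPM to 11 to 14.5 TPM in A62T and 16.2 to 17.4 TPM in dF109, with 24.2 to 25.3 TPM in EV cells. POLR2A, the largest RNA polymerase II subunit, had 48.2, 35.6 and 75.4 TPM in AsPC-1 DMSO and 145, 169 and 82.8 TPM in dF109. In T3M-4 it had 93.6, 57.6 and 51.7 TPM in DMSO, 175 to 192 TPM in A62T and 198 to 216 TPM in dF109, and its A62T change in AsPC-1 (0.82, limma adjusted p = 0.0821) missed the threshold. Without the EV DMSO library its T3M-4 changes were 1.31 and 1.49 (limma adjusted p = 0.0825 and 0.0655). POU5F1B, which shares sequence with POU5F1, rose in AsPC-1 from 1.29 to 2.07 TPM to 4.05 to 4.67 TPM in A62T and 4.45 to 5.11 TPM in dF109, levels as high as in EV cells (3.70 to 4.32 TPM). PCOTH and SPINK4 were the largest falls in AsPC-1 A62T. SPINK4, a secreted protease inhibitor, went from 12.5, 12.8 and 15.8 TPM to 6.12 to 10.1 TPM in A62T and 6.21 to 9.67 TPM in dF109, whereas EV cells (10.5 to 12.5 TPM) stayed beside DMSO.

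The counts for gene lists below are to be read beside the shares of all genes. Counts for EV cells use the same 3 DMSO libraries, so differences between the vectors in DMSO can enter them. As deposited, 10.8%, 29.3%, 45.4% and 34.3% of all genes were higher and 1.98%, 4.11%, 4.6% and 3.33% lower (A62T and dF109 in AsPC-1, then in T3M-4). On rescaled values 5.32%, 11.7%, 10.3% and 8.57% were higher and 8.55%, 19.9%, 18.7% and 15.9% lower.

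Genes for the machinery around RUVBL1/2 gave mixed counts. Of 10 R2TP and PAQosome subunits tested, 2, 1, 2 and 2 were higher and 0, 1, 0 and 2 lower, in that order of comparisons. Of 29 INO80, SRCAP and TIP60 subunits, 2, 6, 10 and 7 were higher and 0, 5, 0 and 2 lower, the higher counts being smaller shares than over all genes in every comparison, and on rescaled values 0 to 1 were higher and 5 to 10 lower. Of the 9 genes for PIKKs and their TTT cochaperone, 1, 6, 6 and 5 were higher and 0 lower, but on rescaled values only 1, 2, 1 and 1 were higher, and SMG1 was the member alike in all 4. Of 26 snoRNP and ribosome biogenesis genes, 5, 2, 5 and 5 were lower and 1, 3, 1 and 3 higher, with list medians of -0.04, 0.03, -0.08 and -0.09. On rescaled values 11, 13, 18 and 18 were lower and 0 higher. In EV cells 13 and 14 of the 26 were lower as deposited.

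Of 30 G2/M genes, 3, 6, 15 and 9 were lower and 0, 1, 0 and 3 higher, and CCNB1, AURKA and CCNA2 were alike in all 4. In EV cells 14 and 7 of the 30 were lower and 6 and 6 higher. Of 8 subunits of the CCT chaperonin, which folds actin and tubulin, 2, 3, 6 and 2 were lower and 0 higher. Proteasome subunits differed by comparison: 16 of 31 were lower in AsPC-1 dF109, and 0, 1 and 1 in the others, while rescaled values put 18 to 31 of them lower in every variant comparison. Of 9 metallothioneins tested in AsPC-1, 3 and 6 were lower and 0 higher, with list medians of -0.37 and -0.62, whereas the list median in EV cells was 0.34.

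Of the p53 target genes, 3 and 6 of 17 were higher in AsPC-1 and 10 and 8 of 18 in T3M-4, with 0 lower, and on rescaled values 2, 3, 3 and 3 were higher and 1, 3, 1 and 1 lower. Of 13 MAPK feedback genes, 4, 3, 10 and 4 were higher and 0 lower. In EV cells of T3M-4, 0 were higher and 4 lower against the 3 DMSO libraries. The EV DMSO library was the lowest control for EPHA2, ETV5 and SPRY4, at 70.2, 2.7 and 2.24 TPM. Treated EV cells lay above it, at 117 to 205, 2.9 to 5.91 and 3.3 to 5.51 TPM. Other members were not set against that library. Rescaled values left 3, 2, 2 and 0 of the 13 higher in the variants. The integrated stress response list had 9 of 22 higher in T3M-4 A62T, where the stress transcription factor ATF3 rose from 30.9, 19.8 and 11.3 TPM to 45.1 to 47.7 TPM, but 1 of 18 higher and 4 lower in AsPC-1 dF109. Against the 3 DMSO libraries, EV cells had 11 of 18 higher in AsPC-1 and 11 of 22 lower in T3M-4. Against the T3M-4 EV DMSO library alone, treated EV cells were higher for ATF3 (24.8 to 28.4 against 11.3 TPM). They were also higher for SLC7A11 (79.1 to 88.9 against 50 TPM) and lower for DDIT4 (124 to 149 against 392 TPM). The difference between lines was not tested.

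**Figure D4:**
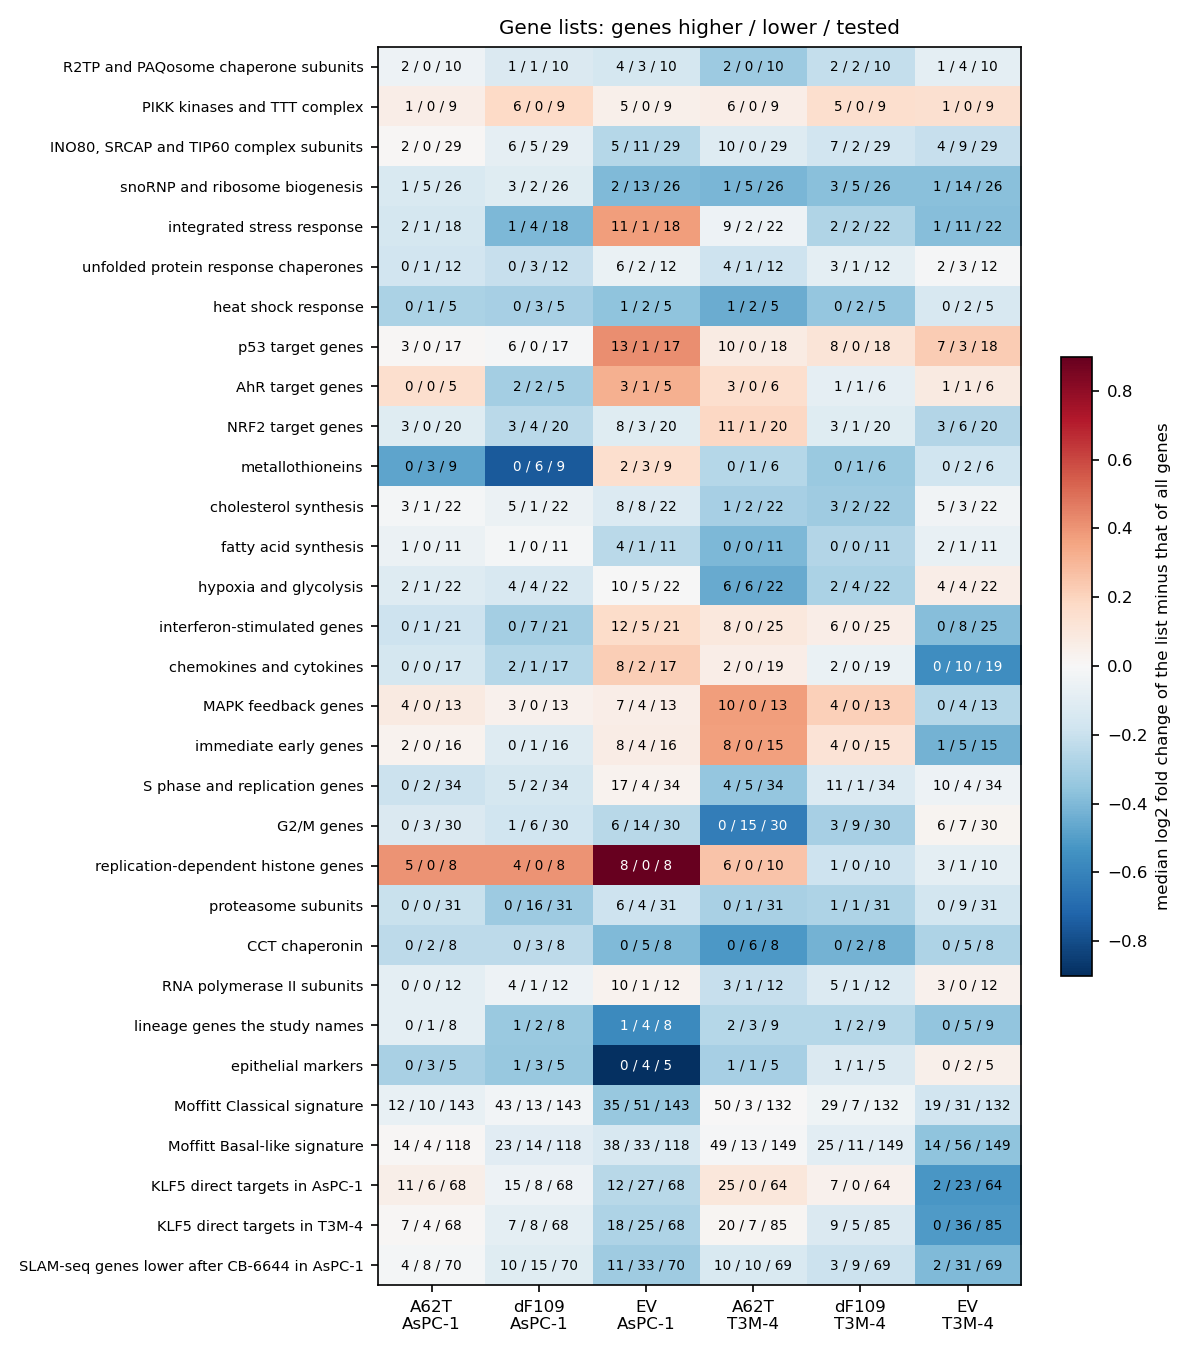
Gene lists in the 4 variant and 2 EV comparisons with the 3 DMSO libraries of the line, TPM as deposited. Colour is the median log2 change of the list minus that of all genes tested, and each cell prints genes higher, lower and tested. The T3M-4 KLF5 target list has 36 of 85 genes lower in T3M-4 EV cells and 7 and 5 of 85 in the variants. All are scored against DMSO libraries of 3 vectors, so differences between the vectors can enter the counts.

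Counts for lineage genes in variant and EV cells share their DMSO libraries, so they are set side by side and were not tested against each other. KLF5, a transcription factor of epithelial identity, had 110, 97.0 and 131 TPM in AsPC-1 DMSO, 102 to 106 TPM in A62T, 94.1 to 103 TPM in dF109 and 77.0 to 77.5 TPM in EV cells, so only EV cells lay wholly below DMSO. In T3M-4 it had 223 to 255 TPM in DMSO, 273 to 287 TPM in A62T and 273 to 285 TPM in dF109, and 172 to 231 TPM in EV cells. Its T3M-4 A62T change of 0.26 passed as deposited and was -0.13 on rescaled values. Of the direct KLF5 targets that the study listed from other libraries of these lines, 6 and 8 of 68 (AsPC-1 list, in AsPC-1) were lower and 11 and 15 higher in the variants, against 27 lower and 12 higher in EV cells. The T3M-4 list in T3M-4 had 7 and 5 of 85 lower and 20 and 9 higher, against 36 lower and 0 higher in EV cells. The median gene of T3M-4 EV cells was 0.037 above the 3 DMSO libraries but 0.163 above the EV DMSO library alone. The target lists were not set against that library alone, so the part of the vectors in the EV counts was not tested. On rescaled values the lower counts were 8 and 22 of 68 against 42, and 25 and 22 of 85 against 52.

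Single lineage genes varied. SERPINB5, a serpin of epithelial cells, had 147 to 182 TPM in AsPC-1 DMSO, 133 to 137 TPM in A62T, 110 to 117 TPM in dF109 and 70.1 to 75 TPM in EV cells. Its log2 changes of -0.27 and -0.52 passed in limma (adjusted p = 0.0236 and 0.000813), and in T3M-4 its variant libraries (135 to 141 TPM) lay within the DMSO range, whose highest value was 147 TPM. MYO1A, a brush border myosin, changed by -0.21 in AsPC-1 dF109 and by -0.01 in A62T, against -1.07 in EV cells. KRT5, a basal keratin, had 855, 1165 and 1846 TPM in T3M-4 DMSO, 695 to 735 TPM in A62T, 936 to 998 TPM in dF109 and 1628 to 1784 TPM in EV cells, so it was the A62T libraries that lay wholly below DMSO. S100A2, a basal-like marker, was lower in T3M-4 in both variants, from 1428 to 1522 TPM to 1052 to 1101 TPM and 1007 to 1093 TPM, and EV cells (1111 to 1266 TPM) were lower than DMSO too. Of the published Moffitt signatures, the classical genes had 12, 43, 50 and 29 higher and 10, 13, 3 and 7 lower in the order above, with medians of 0.037, 0.12, 0.33 and 0.25. The basal-like genes, 118 tested in AsPC-1 and 149 in T3M-4, had 14, 23, 49 and 25 higher and 4, 14, 13 and 11 lower, with medians of 0.11, 0.037, 0.32 and 0.19. The medians of all genes were 0.10, 0.14, 0.33 and 0.29. On rescaled values lower genes outnumbered higher ones in both signatures in every variant comparison.

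Libraries that played no part in choosing the members carried the same directions. CB-6644 was also given for 24 h to unmodified T84 (colorectal), A375 (melanoma), H1048 (small cell lung cancer) and RH30 (alveolar rhabdomyosarcoma) cells, with 4 treated and 4 DMSO libraries each. In limma with Benjamini-Hochberg adjustment, 64 of 66 lower genes were called lower in T84, where 24.2% of all genes were, 55 of 63 in A375 (29.7%), 60 of 65 in H1048 (24%) and 56 of 63 in RH30 (27.3%). Their median changes there were -0.57, -0.63, -0.57 and -0.54. Of the 134 genes higher on both scales, 127 of 130 were called higher in T84 (47.2% of all genes), all but 5 of 130 in A375 (51.5%), 127 of 131 in H1048 (53.9%) and 110 of 117 in RH30 (50.4%). UTP18 changed by -1.14, -2.72, -2.10 and -1.49 and APOLD1 by 2.96, 3.27, 2.78 and 2.12 in the 4 lines. NPM1 changed by -0.67, -0.90, -0.72 and -0.67. For UTP18 and APOLD1 these sizes exceed those in variant cells, and the difference was not tested.

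Deletion of the targets themselves gave the same directions for most lower genes. Guides against RUVBL1 or RUVBL2 were compared with control guides (sgRosa) on day 5 in AsPC-1 and T3M-4. Of the 66 lower genes, 51 and 42 were lower after sgRUVBL1 and sgRUVBL2 in AsPC-1 (15.2% and 11% of all genes) and 64 and 61 in T3M-4 (14.6% and 15.2%). Of the 134 higher genes, 113 and 102 of 133 were higher in AsPC-1 (36.6% and 32.2%) and 122 and 104 of 130 in T3M-4 (45.9% and 39.3%). The guide comparisons of a line share their sgRosa libraries. Another AsPC-1 experiment, with 4 sgRUVBL1 and 4 sgRosa libraries and added after seeing the data, had 56 of the 66 lower genes lower and 3 higher (25.8% and 30% of all genes), and 97 of 127 higher genes higher and 1 lower. Guide libraries of the other pancreatic lines were not analysed here. SLC25A5 changed by -0.56 and -0.50 in AsPC-1 and by -0.78 and -0.79 in T3M-4, and GCSH by -0.76 and -0.53, and -1.11 and -1.15.

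**Figure D5:**
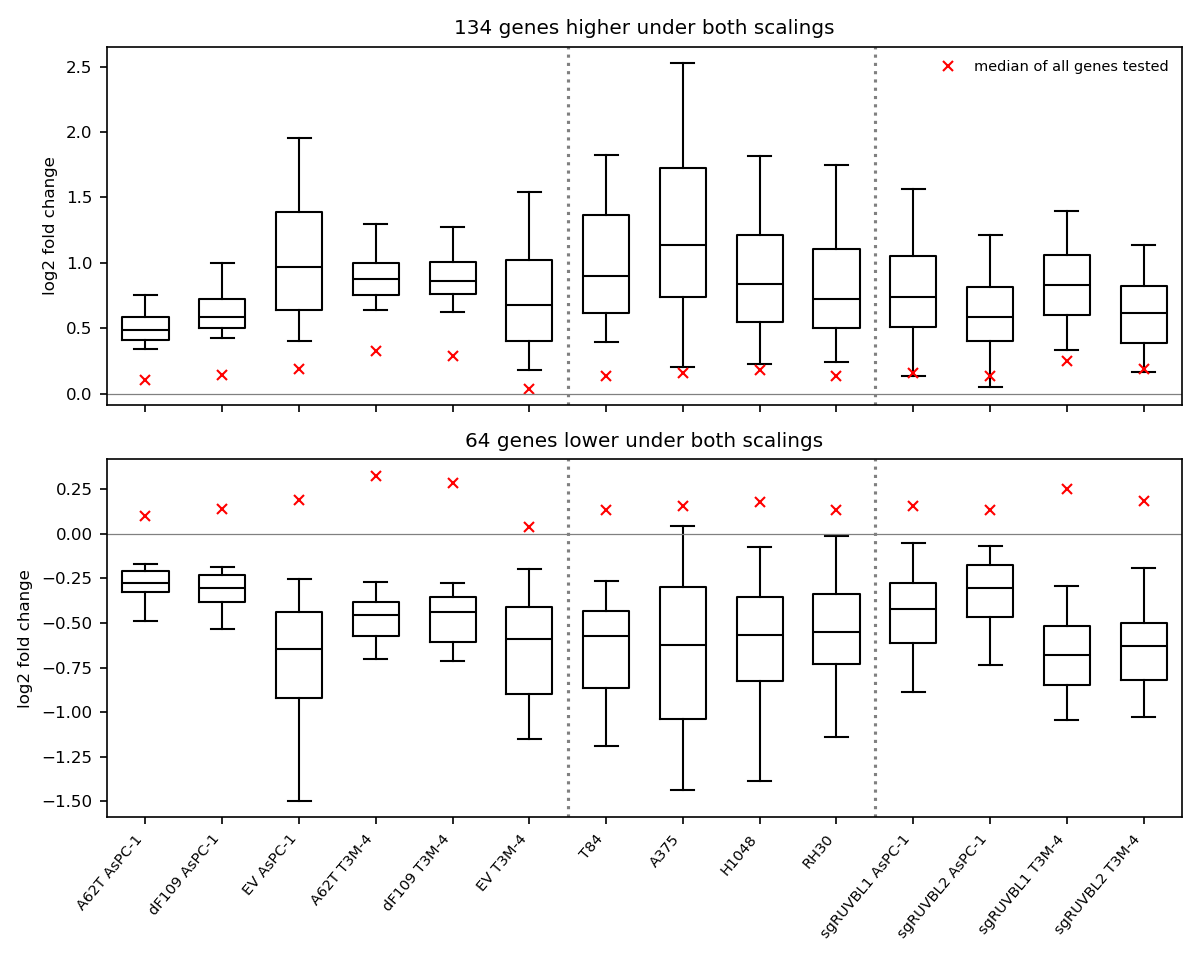
Log2 change of the 134 higher genes and the 64 lower genes that passed on both scales, in the comparisons that chose them (left, EV included), in 4 unmodified lines under CB-6644 (middle) and after guides against RUVBL1 or RUVBL2 (right). Boxes span the quartiles with the median, whiskers the 5th to 95th percentiles, and crosses mark the median of all genes tested; the lower genes have medians of -0.62 to -0.55 in the 4 lines while all genes have medians above 0.

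Across all 8 of these comparisons, 27 of the 62 lower genes that could be tested everywhere were lower each time, against 1.74% of all genes tested everywhere. They comprised nucleolar and RNA proteins (NPM1, POP1, DDX39A, HNRNPH3, SRSF3, SERBP1), mitochondrial proteins (SLC25A5, GCSH, ATP5MC2, MRPL24, C1QBP) and enzymes of purine and one-carbon metabolism (ADSL, AHCY, MTHFD1). The rest were the base excision glycosylase NTHL1, mitotic and checkpoint genes (CCNB1, CCNA2, AURKA, NCAPH, CHEK2, ANAPC15), chromatin and cytoskeletal proteins (ANP32E, HMGN2, TUBB), and RABEPK, PPP1R14B and C11orf98. Of the higher genes, 65 of the 115 that passed on both scales and could be tested everywhere were higher each time, against 10.1% of all genes.

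Some members did not follow in other libraries. MT1X was not called in H1048 (-0.08 ± 0.11, adjusted p = 0.534) or RH30 (0.06 ± 0.20, adjusted p = 0.799) and was higher after sgRUVBL1 in AsPC-1 (0.53 ± 0.17, limma adjusted p = 0.0143). SLC7A11 was higher in T84 (0.87) but lower in A375 (-2.24), H1048 (-0.56) and RH30 (-0.77), each past the threshold. NABP1 rose in the 4 unmodified lines (1.55 to 2.4) and after both guides in T3M-4, but its AsPC-1 values were -0.07 ± 0.10 and 0.06 ± 0.10 (adjusted p = 0.581 and 0.696). FBL was not called in A375 (-0.02 ± 0.02, limma adjusted p = 0.517). UTP18, among the lower genes that changed most in unmodified cells, was lower after sgRUVBL1 in AsPC-1 (-0.38 ± 0.09) but not past the threshold after sgRUVBL2 (-0.18 ± 0.09, adjusted p = 0.115).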

How the data were processed

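RNA-seq of the vector-bearing and unmodified lines used TRIzol RNA, a poly(A) TruSeq kit and single-end reads. Per the study's methods, the authors quantified transcripts against hg38 by kallisto pseudoalignment and calculated TPM with tximport. They also dropped scarce transcripts (limit not given in the sources used here), and the methods do not say whether this touched the TPM. The deposited values are TPM per gene, which keep no read depth, so counting precision is unknown, and a count of genes reaching 1 TPM in each library stands in place of depth. Tables of different experiments were fitted separately.

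From these, log2(TPM + 1) was fitted in limma 3.58.1 (R 4.3.3), 1 fit per line over all treated and DMSO groups, leaving out genes that averaged under 1 TPM, and Benjamini-Hochberg adjusted p-values under 0.05 were called. Differences understate changes of low genes. In simulated data with a change of 1 on the log2 scale planted in 200 genes, the 4 fits recovered 81.5 to 98% of them with 3.55 to 7.58% of calls false. For alike genes 79% were recovered with 0% false, and smaller changes were not simulated. The simulated libraries held no differences between the vectors in DMSO and no shift of whole libraries. These rates therefore do not cover false calls from either source. The rule took 15 alike genes per direction by mean change, 3 rises and 3 falls per comparison without overlap with DMSO, and up to 4 changed genes per list. Members and lists were chosen with earlier results of these data known. Alternatives were pseudocount 0.1, no filter or 5 TPM, median-of-ratios scaling, only the groups compared, own-vector DMSO and leaving out each library. Own-vector DMSO with rescaling, passing on both scales, and another AsPC-1 guide experiment were added after seeing the data. A few table names are description fragments that pool genes, and these are not named. Pseudoalignment can misassign genes with near-identical copies (MT1X, MT2A, POU5F1B, RFPL4A, RABL2A, NBPF and histone genes).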

Additional observations from a re-analysis of the deposited data

Results flagged for a closer look

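SCD, the stearoyl-CoA desaturase of lipid synthesis, was the only gene whose own-vector response differed between the variants past the threshold. In AsPC-1 the dF109 response exceeded the A62T response by 0.64 on the log2(TPM + 1) scale (limma interaction term, Benjamini-Hochberg adjusted p = 0.0462). A62T gave -0.25 (adjusted p = 0.101) and dF109 0.39 (adjusted p = 0.00269), each against 1 DMSO library, and no gene passed after rescaling.

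Among the 4 DMSO libraries of T84, replicate 2 had a mean log2(TPM + 1) of 3.07 over the 134 genes higher on both scales, and the other 3 lay between 2.91 and 2.93. The gap was 0.856 of the group's range. The limit was Dixon's 95% critical value for 4 libraries, which by its construction is passed by chance in about 1 in 20 groups, and 16 sets of 4 libraries were examined. Without that library the count of changed genes in T84 was 8725.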

How the results depend on the processing

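Counts of changed genes moved by over 1.5 times under several settings. A62T in AsPC-1 (1567 genes) gave 922 with no filter, 135 with only the compared groups in the fit, and 5 against own-vector DMSO, as deposited or rescaled. A62T in T3M-4 (6697) gave 3884 rescaled, 163 against own-vector DMSO and 142 against it rescaled. For dF109, only the compared groups gave 1963 in AsPC-1 (4096) and 3153 in T3M-4 (5036), and rescaling gave 3277 in T3M-4. The 666 alike higher genes became 377 with no filter, 141 rescaled, 134 on both scales, 62 with only the compared groups, 2 against own-vector DMSO and 0 against it rescaled. The 66 lower became 40, 469, 64, 4, 0 and 0. The difference between variants (1 gene in AsPC-1, 0 in T3M-4) became 11 and 2 with no filter and 0 in AsPC-1 rescaled. Fewer samples enter the narrower fits, and other causes were not tested.

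Leaving out 1 library gave 126 (without A62T CB-6644 replicate 1) to 2833 (without the EV DMSO library) for A62T and 1867 to 5607 for dF109 in AsPC-1. In T3M-4 it gave 3729 to 8541 for A62T and 2386 to 7668 for dF109, with 1935 (without dF109 CB-6644 replicate 2) to 5641 for dF109 against EV CB-6644. The alike genes ranged from 69 to 1237 higher and 9 to 81 lower, and the variant difference in AsPC-1 from 0 to 1.

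On rescaled values the signs turned for ELF3 (-0.037, AsPC-1 dF109), ZNHIT3 (-0.0084) and KLF5 (-0.13) (both T3M-4 A62T). Against rescaled own-vector DMSO they turned for ZNHIT3 (-0.12) and ELF3 (-0.18) in AsPC-1 dF109, POU5F1B (-0.041), PLK3 (-0.048) and KLF5 (-0.036) in T3M-4 A62T, and PDRG1 (-0.073) and SERPINB5 (-0.50) in T3M-4 dF109. No other named gene turned under another setting.

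No paired analysis was possible because the DMSO libraries of the vector tables carry no replicate number. Elsewhere same-numbered libraries did not deviate together (correlations of both signs), and with a replicate block the counts, such as 6475 for A62T against EV CB-6644 in AsPC-1 and 8545 in T84, stayed within 1.5 times of 6268 and the unblocked T84 count. Depth is unknown, so small changes of genes near 1 TPM are the least certain.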

Other observations

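UPF1, the helicase of nonsense-mediated decay, was named after its values were seen. It changed by 0.34 and 0.43 in AsPC-1 (A62T and dF109) and by 0.78 and 0.73 in T3M-4, and by 0.45, 0.80, 0.66 and 0.34 in T84, A375, H1048 and RH30. UPF3B, an exon junction adaptor of the same pathway and named in the same way, changed by 0.73, 0.64, 0.50 and 0.81 in those 4 lines.

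Some gene families were picked from the alike genes after their values were seen. They were completed from knowledge of the family and are given as counts with no test, beside 5.71% of all genes alike and higher and 0.566% alike and lower (1.15% and 0.549% on both scales). Of 42 lysosomal enzyme and membrane protein genes tested, 12 were alike and higher and 0 lower, but only 1 passed on both scales. Of 12 NBPF genes, whose copies are near-identical, 9 were alike and higher and 4 on both scales. Of 77 mitochondrial ribosomal protein genes, 5 were alike and lower and 1 higher, and of 9 coenzyme Q synthesis genes 3 were alike and lower (PDSS1, COQ2 and COQ3). RNase P and MRP subunits had 2 of 10 alike and lower (POP1 and RPP40) and 0 higher. Of 361 genes named ZNF and a number, 33 were alike and higher and 0 lower, and 10 passed on both scales.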
